A study of Mus musculus with 16 samples.

Results

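The comparison described here asks whether the retina of mice without Nxnl1 responded to bright light differently from the retina of wild-type mice, with the bright doses pooled. For each probe set the change in Nxnl1-/- retina (the mean of 2500 and 5000 lux, minus 50 lux) was set against the same change in Nxnl1+/+ retina, and the difference between these changes is called the interaction. It equals the genotype difference after bright light minus the genotype difference at 50 lux, so a raised 50 lux level in the knockout and a lower level after bright light give the same negative value. All 16 arrays of the series enter it. Of the 23320 probe sets tested, 15 (0.0643%) passed an adjusted p of 0.05 in limma's moderated test, and with the brightest probe set standing for each gene these were 9 of 10916 genes (0.0824%). Of the 15, 13 were lower (0.0557% of those tested) and 2 higher (0.00858%).

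Both genotypes were BALB/c mice, an albino strain, aged 11 to 16 weeks, of both sexes in like proportion per the labels, raised on a 12 h light cycle of 50 lux. Nxnl1-/- retinas were hybridised on 3 arrays after 50 lux, 3 after 2500 lux and 2 after 5000 lux, and Nxnl1+/+ retinas on 2, 3 and 3 arrays at the same doses. Every animal, the 50 lux groups included, spent 16 h in the dark before 1 h under white fluorescent lamps and a further 24 h in the dark before the neural retina was dissected off the pigment epithelium. The labels call the arrays biological replicates, and how many animals each array held was not stated. Values are log2 of the deposited intensities, 1 per probe set and array.

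Nxnl1 encodes a protein with a thioredoxin fold, known as rod-derived cone viability factor, whose short form is secreted by rods and sustains cones in mouse retina. Excess light damages photoreceptors, above all in albino eyes that lack screening pigment. The injured retina answers through its Müller glia, which respond to signals such as endothelin 2 and leukemia inhibitory factor, turn on STAT3 and acute-phase transcription factors, and become reactive.

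The labels were borne out by the targeted gene. Nxnl1 (probe set 1425696_at) had a log2 intensity between 2.21 and 2.92 on the 8 Nxnl1-/- arrays, against 5.64 to 7.61 on the 8 Nxnl1+/+ arrays, with no overlap at any dose. Its interaction was 1.59 ± 0.37 (SE), which did not pass (limma, adjusted p = 0.214): the gene lay at the lower limit in the knockout at every dose, and in wild type it fell by 1.32 with light (limma, adjusted p = 0.0057). Its place relative to the deleted part of the gene was not stated. The 15 rod phototransduction genes measured, which mark the labelled tissue, summed to between 118900 and 193400 intensity units on the Nxnl1-/- arrays and 130900 to 189700 on the Nxnl1+/+ arrays. Lens crystallin transcripts varied widely between arrays. Summed over 10 crystallin genes other than Cryab, they reached 8055, 2648 and 1931 on the 3 Nxnl1-/- arrays at 50 lux, against 182 and 70 on the 2 Nxnl1+/+ arrays. After bright light they ran from 105 to 7023 in Nxnl1-/- and from 62 to 83350 in Nxnl1+/+ retinas, with 1 array far above the others at each dose and genotype except Nxnl1+/+ at 2500 lux, where the 3 arrays had 71, 63 and 63. Crystallin level and genotype moved together at 50 lux, and the part of crystallin-rich tissue in the results below was not tested. The leave-out fit given below cannot test it. The 1 Nxnl1-/- array it keeps at 50 lux, at 1931, is still far above both Nxnl1+/+ arrays. The sex make-up of the arrays also varied. The 3 Y-linked genes measured (Eif2s3y, Kdm5d and Uty) were all at or under log2 4, the limit used here for a dim signal, on 5 of the 16 arrays, Xist was under it on 1, and both kinds were above it on 10. The Y-linked genes averaged 6.41, 6.42 and 6.59 on the Nxnl1-/- arrays at 50 lux, against 2.21 and 8.18 on the Nxnl1+/+ arrays. After bright light 3 of the 5 Nxnl1-/- arrays and 1 of the 6 Nxnl1+/+ arrays had no Y-linked gene above the limit. The 4 sex-linked genes had a median difference of 0.991 at 50 lux and -1.25 after bright light and a median interaction of -2.24, with none past the threshold. With the Y-linked level as a covariate, added after seeing the data, 7 probe sets passed for the interaction, all among the 15, namely those of Edn2, Nudt6, Rnase4, Cebpd, Sox30 and Btc and the dimmer one of Lrrc2.

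RefSeq promoters (250 bases before the gene start, the start itself as base 251, and 49 after it; build GRCm38.p6) were found for 8 of the 9 genes, as 9 entries; Cebpd had none. Edn2 is shown because it had the largest interaction, and Lrrc2 and Rdh9 because they held matches to the motifs searched and differed in light response. Lrrc2 rose in both genotypes, while Rdh9 fell in Nxnl1-/- retina and did not pass in Nxnl1+/+ retina. Edn2 lies on the plus strand at chr4:120160956-120161255, Lrrc2 on the plus strand at chr9:110951295-110951594, and Rdh9 on the plus strand at chr10:127776155-127776454. Capitals mark motif matches.
Edn2: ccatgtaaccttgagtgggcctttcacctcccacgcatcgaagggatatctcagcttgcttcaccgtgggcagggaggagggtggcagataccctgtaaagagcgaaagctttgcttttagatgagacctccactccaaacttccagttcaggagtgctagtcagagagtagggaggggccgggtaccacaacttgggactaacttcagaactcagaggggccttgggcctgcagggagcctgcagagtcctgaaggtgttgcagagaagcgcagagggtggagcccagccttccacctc
Lrrc2: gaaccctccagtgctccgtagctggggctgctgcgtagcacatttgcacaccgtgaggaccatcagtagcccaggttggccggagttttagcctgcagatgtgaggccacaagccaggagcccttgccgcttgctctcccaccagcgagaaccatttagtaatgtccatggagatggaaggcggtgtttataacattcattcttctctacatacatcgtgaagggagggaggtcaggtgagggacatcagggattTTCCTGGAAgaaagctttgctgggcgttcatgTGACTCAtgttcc
Rdh9: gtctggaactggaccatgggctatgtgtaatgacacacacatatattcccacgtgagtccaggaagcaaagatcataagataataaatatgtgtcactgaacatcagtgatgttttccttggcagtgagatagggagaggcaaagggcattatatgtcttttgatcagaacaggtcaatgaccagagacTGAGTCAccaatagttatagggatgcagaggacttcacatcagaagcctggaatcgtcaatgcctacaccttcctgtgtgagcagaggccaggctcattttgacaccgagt
Searched on both strands were TTCNNNGAA for STAT factors, TGANTCA for AP-1, TTGCNNAA for C/EBP factors and TAATCC for the photoreceptor factor CRX. The STAT pattern was found in 8.3% of all 32851 promoters of this length and in 1 of the 9 entries, as TTCCTGGAA at bases 256 to 264 of Lrrc2. The AP-1 pattern was found in 7.81% of all promoters and in 2 entries, as TGACTCA at bases 288 to 294 of Lrrc2 and TGAGTCA at bases 190 to 196 of Rdh9. The C/EBP pattern was found in 10.8% of all promoters and in 1 entry, of Rnase4, and the CRX pattern in 7.06% of all promoters and in none of the 9. No matches overlapped each other. The Edn2 window held none of these letters.

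All 9 genes had a negative interaction, and in all 9 the knockout was already different at 50 lux. Edn2, Nudt6, Rnase4, Cebpd, Sox30, Antxr2, Lrrc2, Btc and Rdh9 were each higher in Nxnl1-/- than in Nxnl1+/+ retina at 50 lux. All 9 passed there, against 0.293% of all genes passing in that direction. Their 3 and 2 arrays did not overlap, which is only a description, since the share of all genes without overlap at 50 lux was not counted. After bright light none of the 9 passed (limma, adjusted p = 1 for each). For scale, 44 of 10916 genes (0.403%) passed at 50 lux and 1 (0.00916%), Nxnl1 itself, passed after bright light. The interaction contains the 50 lux difference, so a called probe set had to differ in one of its pieces; the calls at 50 lux are given to say which piece, not as separate support. Over the 15 called probe sets the median size of the genotype difference was 1.44 at 50 lux and 0.0886 after bright light, on the log2 scale. On values as deposited, the share of the interaction that came from 50 lux was at least 75% for 14 of the 15 and 68.4% for Rnase4. Among the 14 was a dim Myo5b probe set (1437698_at). With values raised to log2 4 its difference was 0 at 50 lux and -0.11 after bright light. The 2 called probe sets with a positive interaction would not have been tested without the 2 Nxnl1+/+ arrays at 50 lux, where they were highest. The 95% confidence interval of the difference after bright light included 0 for 13 of the 15, and for 12 it lay wholly within 0.5 of 0. The 50 lux groups hold 5 arrays and the bright groups 11, so 69% of the variance of an interaction comes from its 50 lux piece, and the median standard error over all probe sets was 0.181 at 50 lux and 0.121 after bright light.

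**Figure D1:**
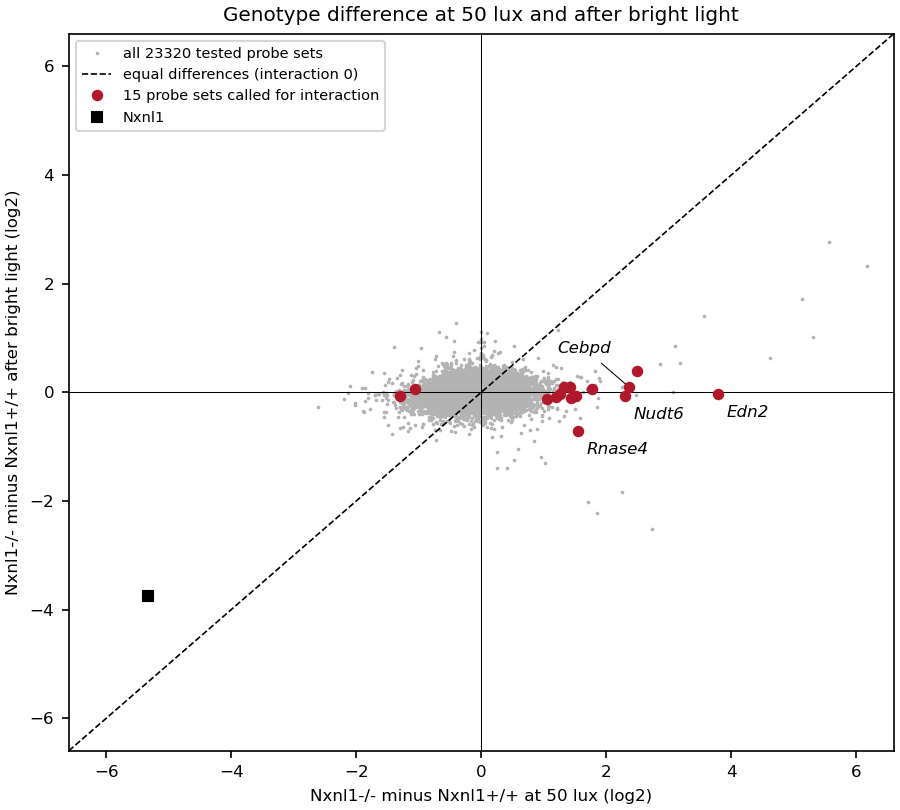
Genotype difference (Nxnl1-/- minus Nxnl1+/+, log2) at 50 lux on the horizontal axis and after bright light on the vertical axis, for all 23320 probe sets tested (grey), the 15 called for interaction (red) and Nxnl1 (square). Points on the dashed line have an interaction of 0; the called probe sets lie along the horizontal axis, between -1.30 and 3.79 at 50 lux and between -0.72 and 0.40 after bright light.

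**Figure D2:**
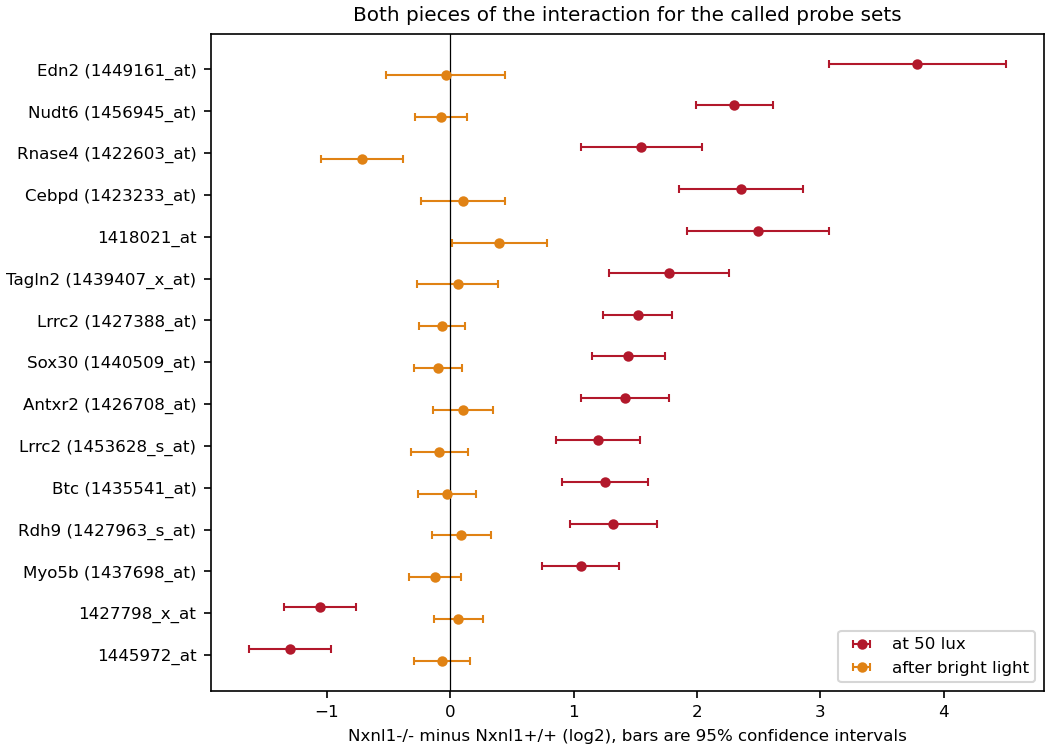
The genotype difference at 50 lux (red) and after bright light (orange) for each of the 15 called probe sets, with 95% confidence intervals on the log2 scale, on the values as deposited. The 50 lux intervals all exclude 0; the bright-light intervals include 0 except for Rnase4 and 1418021_at.

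Endothelin 2, encoded by Edn2 (1449161_at), is a secreted peptide that stressed photoreceptors make and that acts on Müller glia in mouse retina. Its log2 intensity at 50 lux was 6.83, 7.35 and 8.36 in Nxnl1-/- retinas, against 3.58 and 3.88 in Nxnl1+/+ retinas. All 3 knockout arrays lay far above both wild-type arrays, which were at or under log2 4. At 2500 lux it was 10.11, 10.20 and 10.60 in Nxnl1-/- and 10.04, 9.89 and 10.53 in Nxnl1+/+ retinas. At 5000 lux it was 10.09 and 10.20 in Nxnl1-/- and 10.49, 10.36 and 10.26 in Nxnl1+/+ retinas. The genotypes overlapped at 2500 lux, and at 5000 lux both knockout arrays lay below all 3 wild-type arrays. With the wild-type level set to log2 4, Edn2 was at least 11.4-fold higher in the knockout at 50 lux (limma, adjusted p = 0.000303). Bright light raised it 6.54-fold in Nxnl1-/- and at least 76.7-fold in Nxnl1+/+ retina, an interaction of -3.55 with values raised to log2 4 (limma, adjusted p = 0.00277). With values as deposited the interaction was -3.82 ± 0.40 (SE; limma, adjusted p = 0.00202). The genotype difference after bright light was -0.04 (95% interval -0.52 to 0.45).

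Betacellulin, encoded by Btc (1435541_at), is a ligand of the epidermal growth factor receptor. It had a log2 intensity of 6.53, 6.23 and 6.67 at 50 lux in Nxnl1-/- retinas, against 5.31 and 5.14 in Nxnl1+/+ retinas. After bright light it lay between 7.85 and 8.13 in Nxnl1-/- and between 7.78 and 8.32 in Nxnl1+/+ retinas, so the genotypes were apart at 50 lux and overlapped afterwards. Light raised it 2.85-fold in Nxnl1-/- and 6.92-fold in Nxnl1+/+ retinas, an interaction of -1.28 ± 0.20 (SE; limma, adjusted p = 0.032). A second, dimmer Btc probe set (1421161_at) gave -0.97, which did not pass (limma, adjusted p = 0.407).

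Cebpd (1423233_at) encodes a transcription factor of the C/EBP family that is induced in inflammation and acute-phase responses. At 50 lux its log2 intensity was 7.83, 7.58 and 8.02 in Nxnl1-/- retinas, against 5.88 and 5.02 in Nxnl1+/+ retinas. At 2500 lux it was 11.98, 11.94 and 12.09 in Nxnl1-/- and 11.39, 11.62 and 12.08 in Nxnl1+/+ retinas. At 5000 lux it was 11.64 and 11.74 in Nxnl1-/- and 11.87, 11.64 and 11.86 in Nxnl1+/+ retinas. The knockout was above wild type on every 50 lux array, by 5.12-fold on average (limma, adjusted p = 0.000576), and the bright-light arrays overlapped. The rise with light was 16.4-fold in Nxnl1-/- and 78.3-fold in Nxnl1+/+ retina, an interaction of -2.25 ± 0.28 (SE; limma, adjusted p = 0.00808). The genotype difference after bright light was 0.10 (95% interval -0.24 to 0.44). A second probe set of Cebpd, at log2 2.83 or lower throughout, fell below the filter.

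Sox30 (1440509_at) encodes an HMG-box transcription factor known from male germ cells. Its log2 intensity at 50 lux was 7.39, 7.60 and 7.72 in Nxnl1-/- retinas, against 5.94 and 6.33 in Nxnl1+/+ retinas. After bright light it ran from 9.30 to 9.49 in Nxnl1-/- and from 9.25 to 9.65 in Nxnl1+/+ retinas. The 50 lux arrays were apart, the 2500 lux arrays overlapped, and at 5000 lux both knockout arrays (9.33 and 9.30) lay just below the 3 wild-type arrays (9.42, 9.65 and 9.64). The interaction was -1.54 ± 0.16 (SE; limma, adjusted p = 0.00202), with a 2.72-fold difference at 50 lux and a difference of -0.10 (95% interval -0.30 to 0.10) after bright light.

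Nudt6 (1456945_at) encodes a nudix hydrolase and lies antisense to Fgf2, the gene of a fibroblast growth factor that supports photoreceptors after injury; in RefSeq the genes overlap by 5125 bases. Its log2 intensity at 50 lux was 8.49, 8.87 and 8.77 in Nxnl1-/- retinas, against 6.46 and 6.36 in Nxnl1+/+ retinas. At 2500 lux it was 10.99, 10.99 and 11.00 in Nxnl1-/- and 10.92, 10.60 and 11.04 in Nxnl1+/+ retinas. At 5000 lux it was 10.92 and 10.69 in Nxnl1-/- and 11.20, 11.01 and 11.08 in Nxnl1+/+ retinas. Nudt6 had the smallest adjusted p of all probe sets for the interaction, at -2.38 ± 0.17 (SE; limma, adjusted p = 8.66e-05). It was 4.93-fold higher in the knockout at 50 lux (limma, adjusted p = 6.42e-06), and the difference after bright light was -0.08 (95% interval -0.29 to 0.13). A second Nudt6 probe set (1424510_at) did not show this: its interaction was -0.39 (limma, adjusted p = 0.67), and its 50 lux arrays overlapped. The Fgf2 probe set (1449826_a_at) lay at or under log2 2.36 on all 5 arrays at 50 lux and rose with light in both genotypes.

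Rnase4 (1422603_at), which encodes a secreted ribonuclease, was the only gene of the 9 with less than 75% of its interaction at 50 lux. Its log2 intensity at 50 lux was 6.31, 6.10 and 5.66 in Nxnl1-/- retinas, against 4.87 and 4.09 in Nxnl1+/+ retinas. At 2500 lux it was 6.52, 6.35 and 6.15 in Nxnl1-/- and 7.26, 7.61 and 7.49 in Nxnl1+/+ retinas. At 5000 lux it was 6.79 and 6.66 in Nxnl1-/- and 7.24, 6.89 and 7.03 in Nxnl1+/+ retinas. The order of the genotypes turned round: every knockout array was above wild type at 50 lux and below it at both bright doses. The difference at 50 lux was 1.55 (2.92-fold; limma, adjusted p = 0.0131). The difference after bright light was -0.72 (95% interval -1.05 to -0.39), with an unadjusted p of 0.00041 in limma and an adjusted p of 1, so it failed the correction over all probe sets. The interaction was -2.26 ± 0.27 (SE; limma, adjusted p = 0.00671). Light raised Rnase4 6.84-fold in Nxnl1+/+ retina (limma, adjusted p = 1.13e-06), while its change in Nxnl1-/- retina was 1.42-fold and did not pass (limma, adjusted p = 0.0635).

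Antxr2 (1426708_at) encodes the capillary morphogenesis protein, a receptor for anthrax toxin that binds matrix proteins. Its log2 intensity at 50 lux was 8.37, 8.56 and 8.52 in Nxnl1-/- retinas, against 7.29 and 6.83 in Nxnl1+/+ retinas. After bright light it ran from 9.68 to 10.02 in Nxnl1-/- and from 9.48 to 9.99 in Nxnl1+/+ retinas, which overlapped. The interaction was -1.32 ± 0.20 (SE; limma, adjusted p = 0.032). Lrrc2, which encodes a leucine-rich repeat protein, was called through each of its probe sets. The brighter (1453628_s_at) had 8.58, 9.14 and 8.64 at 50 lux in Nxnl1-/- retinas, against 7.57 and 7.61 in Nxnl1+/+ retinas, and an interaction of -1.29 ± 0.19 (SE; limma, adjusted p = 0.032). The dimmer (1427388_at) averaged 8.08 ± 0.12 at 50 lux in Nxnl1-/- retinas, against 6.56 ± 0.04 in Nxnl1+/+ retinas (SD), and had an interaction of -1.59 ± 0.16 (SE; limma, adjusted p = 0.00141). Both probe sets were apart at 50 lux. After bright light the differences were -0.09 and -0.07; the arrays overlapped at both doses for the dimmer probe set and at 2500 lux for the brighter one, whose 2 knockout arrays lay below wild type at 5000 lux.

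Rdh9 (1427963_s_at) encodes a retinol dehydrogenase of the short-chain family and was the only gene of the 9 that light did not raise in either genotype. Its log2 intensity at 50 lux was 7.52, 7.12 and 7.33 in Nxnl1-/- retinas, against 5.97 and 6.02 in Nxnl1+/+ retinas. At 2500 lux it was 6.09, 5.82 and 5.70 in Nxnl1-/- and 6.08, 5.76 and 5.68 in Nxnl1+/+ retinas. At 5000 lux it was 6.27 and 5.97 in Nxnl1-/- and 6.10, 5.90 and 5.91 in Nxnl1+/+ retinas. Only the 3 knockout arrays at 50 lux stood above the rest. With light Rdh9 fell by 1.33 in Nxnl1-/- retina (limma, adjusted p = 1.88e-05), while the change in Nxnl1+/+ retina was -0.09 (limma, adjusted p = 0.771). The interaction, -1.23 ± 0.20 (SE; limma, adjusted p = 0.0467), was the closest of the 9 to the threshold.

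**Figure D3:**
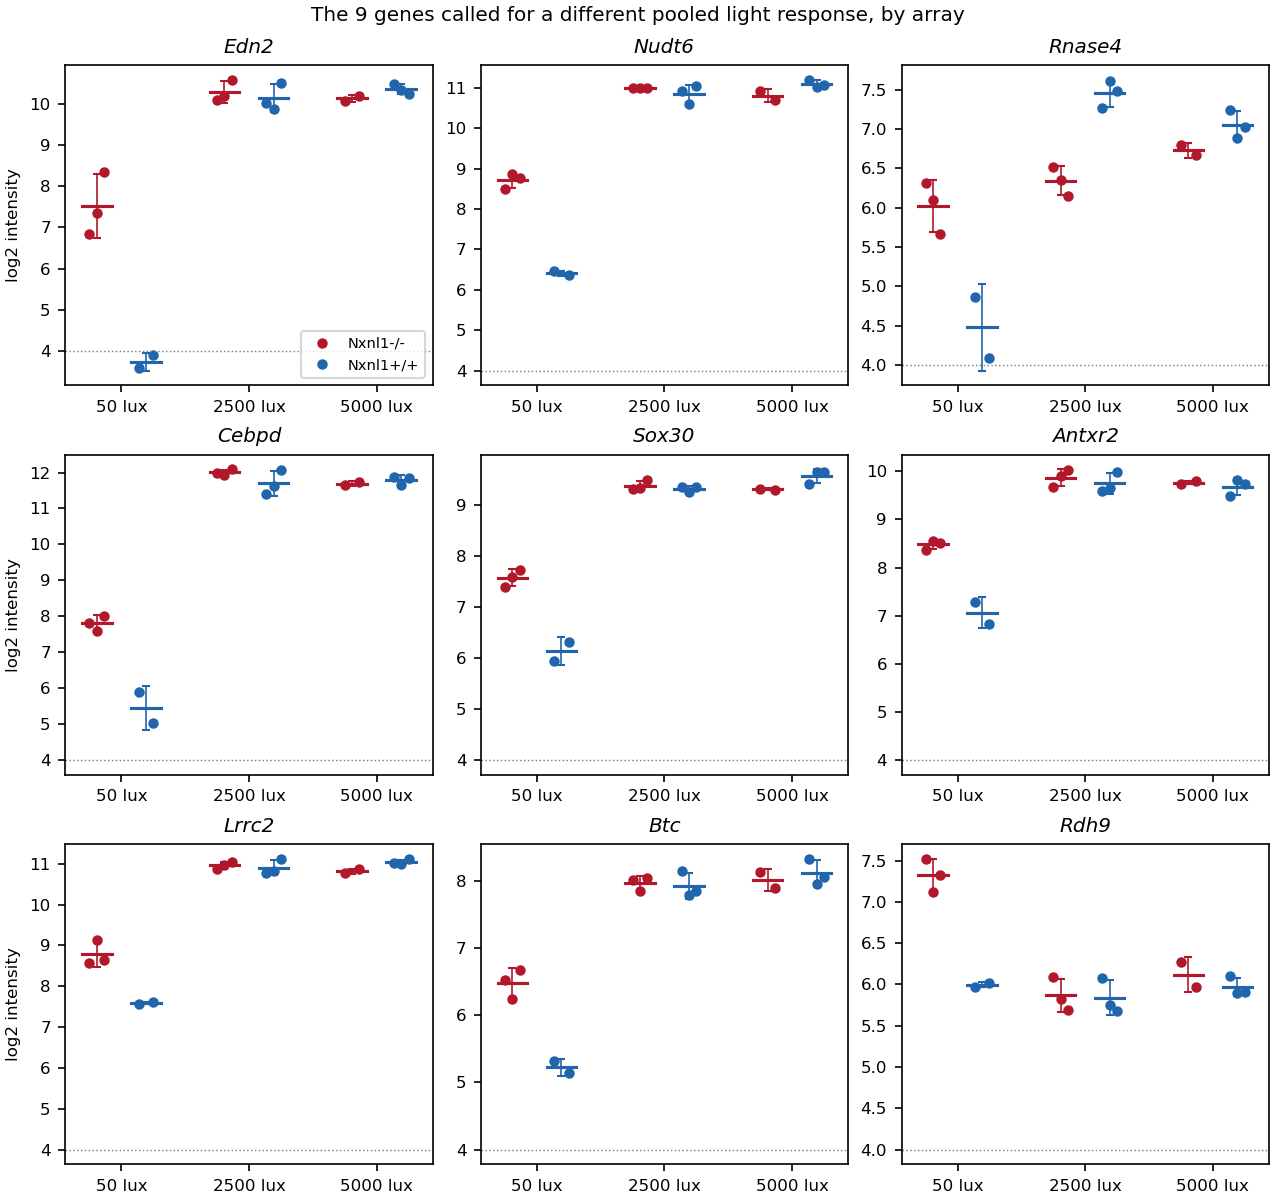
Log2 intensity of the 9 called genes on each array, by dose, with Nxnl1-/- (red) left of Nxnl1+/+ (blue) at each dose; bars are the mean ± SD and the dotted line is log2 4. At 50 lux the red points lie above the blue in all 9 panels; at 2500 lux the genotypes overlap except for Rnase4, and at 5000 lux the blue points lie above the red for Edn2, Nudt6, Rnase4, Sox30 and Lrrc2.

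Read by dose, all Nxnl1-/- arrays lay below all Nxnl1+/+ arrays for 1 of the 9 genes at 2500 lux, Rnase4, against 7.73% of all genes. At 5000 lux, with 2 and 3 arrays, they did so for 5 of the 9, namely Edn2, Nudt6, Rnase4, Sox30 and Lrrc2, against 5.44% of all genes. These arrays enter the interaction that chose the genes, so the counts are a description.

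Of the other called probe sets, 3 were higher and 2 were lower in the knockout at 50 lux. A dimmer probe set of Tagln2 (1439407_x_at), the gene of an actin-binding protein, had an interaction of -1.72 (limma, adjusted p = 0.0419), or -1.46 with values raised to log2 4 (limma, adjusted p = 0.0727); the brighter one (1426529_a_at) gave -1.12 (limma, adjusted p = 0.303). A dim probe set of Myo5b (1437698_at), the gene of a myosin that moves recycling vesicles, lay at or under log2 4.49 on every array and gave -1.18 (limma, adjusted p = 0.032); with values raised to log2 4 it gave -0.11 (limma, adjusted p = 0.816). The bright Myo5b probe set (1452298_a_at) gave -0.95 (limma, adjusted p = 0.108). Probe set 1418021_at, which the annotation assigns to several genes and which is therefore not named, gave -2.10 (limma, adjusted p = 0.032), or -1.60 with values raised to log2 4 (limma, adjusted p = 0.0818); its difference after bright light, 0.40, had an interval of 0.01 to 0.78. The 2 called probe sets with a positive interaction, 1427798_x_at (1.12) and 1445972_at (1.23), have no gene symbol in the annotation used. They were lower in Nxnl1-/- at 50 lux, at 3.33 to 3.67, against 4.45 to 5.01 in Nxnl1+/+ retinas, and each exceeded log2 4 on 1 of the 11 bright-light arrays. Without the 2 Nxnl1+/+ arrays at 50 lux, where they were highest, neither would have passed the filter. With values raised to log2 4 their interactions were 0.53 (limma, adjusted p = 0.0955) and 0.84 (limma, adjusted p = 0.0176). Raising set nearly all their other arrays to the same value, so these p-values rest on a spread that it reduced. In that fit 10 of the 15 called probe sets passed, and Rdh9 was the only one of the 9 genes that did not (limma, adjusted p = 0.0535).

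In wild type light raised 8 of the 9 genes, all but Rdh9, against 9.84% of all genes tested; in the knockout it raised 7, all but Rdh9 and Rnase4, against 8.64% of all genes tested. These responses share the 50 lux arrays with the interaction and are given as a description. Part of the wild-type rise was already present in the knockout at 50 lux: expressed as a share of the wild-type log2 response, the 50 lux difference was 37.5% for Cebpd, 43.5% for Sox30, 45% for Btc, 50.4% for Nudt6 and 53.4% for Antxr2. For Edn2 it was 56.1% with the wild-type level at log2 4, for Rnase4 55.8%, and for Lrrc2 35.4% or 47% by probe set. No knockout level at 50 lux reached the wild-type level after bright light in these 8 genes.

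The bright doses were also read singly. All 15 called probe sets had the sign of their pooled interaction at 2500 lux and at 5000 lux. At 2500 lux alone 7 of the 15 passed, against 0.0472% of all probe sets, and at 5000 lux alone 6 passed, against 0.0257%. Both dose-wise interactions use the same 50 lux arrays, so their likeness is no separate support. The difference between them rests on the bright-light arrays alone. It was tested directly: 2 of 23320 probe sets passed and none of the 15 did (limma, lowest adjusted p among them 0.942), with differences between -0.48 and 0.79. Edn2 gave -3.64 at 2500 lux and -4.01 at 5000 lux (limma, adjusted p = 0.00995 and 0.00599), and Cebpd -2.05 and -2.46 (limma, adjusted p = 0.0444 and 0.022). Rnase4 gave -2.66 at 2500 lux (limma, adjusted p = 0.00652) and -1.87 at 5000 lux, which did not pass (limma, adjusted p = 0.104).

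The same question was asked from the other side, by taking every probe set that passed at 50 lux and reading it on the bright-light arrays, which entered the choice only through the shared estimate of the spread. Of the 76 probe sets that passed at 50 lux (0.326% of those tested; 0.206% higher and 0.12% lower), Nxnl1 was 1, and the others were 48 higher and 27 lower in the knockout. The 48 had a median 50 lux difference of 1.21. After bright light their differences ran from -0.72 to 0.40 with a median of 0.00278; 24 of the 48 kept their sign, 3 had an unadjusted p below 0.05 (1 of them with its sign kept), and none passed, against 0.00429% of all probe sets. The 27 had a median 50 lux difference of -1.1 and ran from -0.32 to 0.15 after bright light; 15 kept their sign, 1 at an unadjusted p below 0.05, and none passed. Over all probe sets 643 (2.76%) had an unadjusted p below 0.05 after bright light, against 3396 (14.6%) at 50 lux. The number passing at 50 lux depended on single arrays. It was 363 without Nxnl1-/- 50 lux replicate 2, 24 without Nxnl1-/- 50 lux replicate 1, 9 without Nxnl1+/+ 50 lux replicate 2 and 36 without Nxnl1+/+ 50 lux replicate 1. It was 31, 28 and 28 without Nxnl1-/- 2500 lux replicates 1 to 3, and 44, 46 and 33 without Nxnl1+/+ 5000 lux replicates 1 to 3.

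The light responses of the 48 and the 27 share the 50 lux arrays that chose them, so a smaller or negative response in one genotype and a larger one in the other are partly fixed by that choice, and the counts that follow are a description only. Over all probe sets it raised 9.82% and lowered 12.1% in Nxnl1-/- retina, and raised 7.59% and lowered 6.04% in Nxnl1+/+ retina. Of the 48, light raised 23 in both genotypes, as with Cebpd and S100a6. It raised 14 in Nxnl1+/+ but did not pass in Nxnl1-/- retina, as with Krt18, and it lowered 11 in Nxnl1-/- while not passing in Nxnl1+/+ retina, as with Rdh9. Of the 27 that were lower in the knockout at 50 lux, light lowered 16 in Nxnl1+/+ while not passing in Nxnl1-/- retina, as with Gucy2e, the gene of a photoreceptor guanylate cyclase, and Nxnl2, the paralogue of Nxnl1. Nxnl2 (1429133_at) was at 10.91, 10.82 and 10.88 in Nxnl1-/- retinas at 50 lux, against 11.52 and 11.46 in Nxnl1+/+ retinas. After bright light it ran from 10.51 to 11.06 in Nxnl1-/- and from 10.59 to 10.91 in Nxnl1+/+ retinas, which overlapped. The 50 lux difference was -0.62 (limma, adjusted p = 0.0442), and its interaction of 0.65 did not pass (limma, adjusted p = 0.175).

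Just outside the threshold, 11 probe sets had an adjusted p between 0.05 and 0.10, and their values were seen before they were named here. All 11 had at least 75% of their interaction at 50 lux, and 10 passed at 50 lux. The negative ones included Gckr (-1.80), Zfp469 (-1.55, or -0.66 with values raised to log2 4) and a Prtg probe set (1438410_at, -1.50, or -1.44). Zfp469 exceeded log2 4 only on the 3 Nxnl1-/- arrays at 50 lux, which alone brought it past the filter. Raising made all its other arrays equal, so no p-value of that fit is given. The positive ones, lower in the knockout at 50 lux, were Fabp4 (1451263_a_at, 1.94), Wdr31 (1423636_at, 1.83) and 4933439C10Rik (0.91), with Gucy2e among them. Brighter probe sets stand for Prtg, Fabp4 and Wdr31 as genes. With values raised to log2 4 these gave -0.88, 1.66 and 1.39, and none passed (limma, adjusted p = 0.324, 0.115 and 0.127). Just inside, Rdh9 had an adjusted p of 0.0467 and Tagln2 0.0419 in limma.

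Gene groups were read against the whole array. The lists were chosen with earlier results of these data known, so their counts are a description and not a test. The median over all 10916 genes was 0.12 at 50 lux, -0.00466 after bright light and -0.122 for the interaction, on the log2 scale; after centring each array the 50 lux median was 0.0989. In the list of glial reactivity and injury cytokines 20 of 23 genes were measured. Of these 2 passed for the interaction, Edn2 and Cebpd, against 0.0824% of all genes, and 3 passed at 50 lux, against 0.403%, the third being S100a6, the gene of a calcium-binding protein, whose difference was 1.88 at 50 lux (limma, adjusted p = 0.029) and 0.25 after bright light. The list's median was 0.422 at 50 lux, 0.189 after bright light and -0.24 for the interaction. Light raised all 20 in each genotype, against 8.64% of all genes in Nxnl1-/- and 9.84% in Nxnl1+/+ retina. Their summed intensity was 4911 to 5829 in Nxnl1-/- retinas at 50 lux, against 4152 to 4217 in Nxnl1+/+ retinas, and the genotypes overlapped after bright light. A higher sum in the knockout at 50 lux, without overlap, was not particular to this list. It was also found for heat shock, apoptosis and neuropeptide genes, while rod phototransduction and Müller glia sums overlapped.

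Lists of signalling and transcription factor genes added no call for the interaction beyond Edn2 and Cebpd. None of 14 genes of the list for leukemia inhibitory factor, gp130 and STAT3 passed, and the list's median was -0.153. Its member with the smallest p was Osmr, the oncostatin M receptor, at -0.90 (limma, adjusted p = 0.42). Stat3 had a difference of 0.70 at 50 lux and 0.18 after bright light, neither of which passed; its dimmer probe set (1460700_at) was past the threshold at 50 lux, at 0.81, and had -0.03 after bright light. Of 4 C/EBP factors measured only Cebpd passed; Cebpb had an interaction of -0.48 (limma, adjusted p = 0.53). Among 16 growth factor and endothelin genes Edn2 was the only call. Btc, also called, was not on that list. None of 16 immediate early genes passed; Atf3 gave -0.84 and Myc 0.88, or 0.52 with values raised to log2 4.

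Of 4 immune lists, read by the brightest probe set of each gene, 3 had a median above the all-gene median of 0.12 at 50 lux, and the NF-kappaB factors and feedback inhibitors, at 0.105, did not; no test set the lists against all genes. None of 17 interferon response genes passed for the interaction; their median was -0.315, with 0.448 at 50 lux and 0.101 after bright light. Bst2, which tethers enveloped viruses, was the only member that passed at 50 lux, on values at or near the dim limit: it had 3.79, 3.99 and 4.16 in Nxnl1-/- retinas, against 2.75 and 2.31 in Nxnl1+/+ retinas. With values raised to log2 4 its 50 lux difference was 0.05 (limma, adjusted p = 0.953), and it differed by -0.01 after bright light. Ifitm3, an antiviral membrane protein, was at 1.23 at 50 lux (limma, adjusted p = 0.057) and 0.05 after bright light. None of 11 complement and antigen presentation genes passed; the list had the largest immune median at 50 lux, 0.744, with 0.11 after bright light, and B2m, beta-2 microglobulin, had 1.09 and 0.00. None of 9 chemokines and cytokines passed; Cxcl12 had 1.03 at 50 lux and 0.21 after bright light.

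The 11 microglia and macrophage markers, which share C1qa with the complement list, had a higher sum in the knockout at 50 lux. Their summed intensity was 878.9 to 1165 in Nxnl1-/- retinas at 50 lux, against 630.2 to 660.7 in Nxnl1+/+ retinas, and overlapped between genotypes after bright light. Their median difference was 0.479 at 50 lux and 0.0921 after bright light, and none passed in either. Their median interaction was -0.097, against -0.122 over all genes, and none passed for it. In whole retina more cells of a type and more RNA per cell cannot be told apart. The 10 endothelial and pericyte markers also had a higher sum in the knockout at 50 lux, at 1520 to 2051 in Nxnl1-/- retinas, against 1259 to 1361 in Nxnl1+/+ retinas. The 11 crystallins had the largest median, 3.18 at 50 lux and 0.636 after bright light, with no member past the threshold. Their sum was 4138 to 12950 in Nxnl1-/- retinas at 50 lux, against 813.5 to 998.4 in Nxnl1+/+ retinas.

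The photoreceptor lists differed among themselves. Of 15 rod phototransduction genes none passed for the interaction or at 50 lux, and the list's medians were -0.016 for the interaction and -0.0244 at 50 lux. Of 13 cone genes none passed, and the list's medians were -0.203 for the interaction, with 3 of 13 positive, and 0.156 at 50 lux. Pde6c, the cone phosphodiesterase, had the smallest p, with 0.72 for the interaction (limma, adjusted p = 0.36). It was lower in the knockout at 50 lux (-0.73), against the direction of its list. As for several unrelated lists, the cone sum was higher in the knockout at 50 lux. It was 17560 to 18240 in Nxnl1-/- retinas, against 15100 to 15820 in Nxnl1+/+ retinas, and overlapped after bright light. Among 26 genes of outer segment, synapse and photoreceptor transcription factors 3 passed as lower in the knockout at 50 lux, against 12 of all 10916 genes. They were Nxnl1, the targeted gene itself, Nxnl2 and Gucy2e. Gucy2e (1422193_at) is a dim probe set above log2 4 only on the 2 Nxnl1+/+ arrays at 50 lux. These alone brought it past the filter. With values raised to log2 4 it was at least 1.99-fold lower in the knockout there. Raising made all its other arrays equal, so p-values of that fit do not measure their spread and are not given. As deposited its 50 lux difference was -1.52 (limma, adjusted p = 0.0122). Its interaction was 0.99 with values raised and did not pass as deposited (limma, adjusted p = 0.0812). The 14 pigment epithelium markers had a median of -0.505 at 50 lux, and Krt18, a keratin among them, was the only one that passed, at 1.06 (limma, adjusted p = 0.037). None of 28 thioredoxin family genes, 21 oxidative stress genes, 20 Müller glia genes or 33 respiratory chain genes passed for the interaction.

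**Figure D4:**
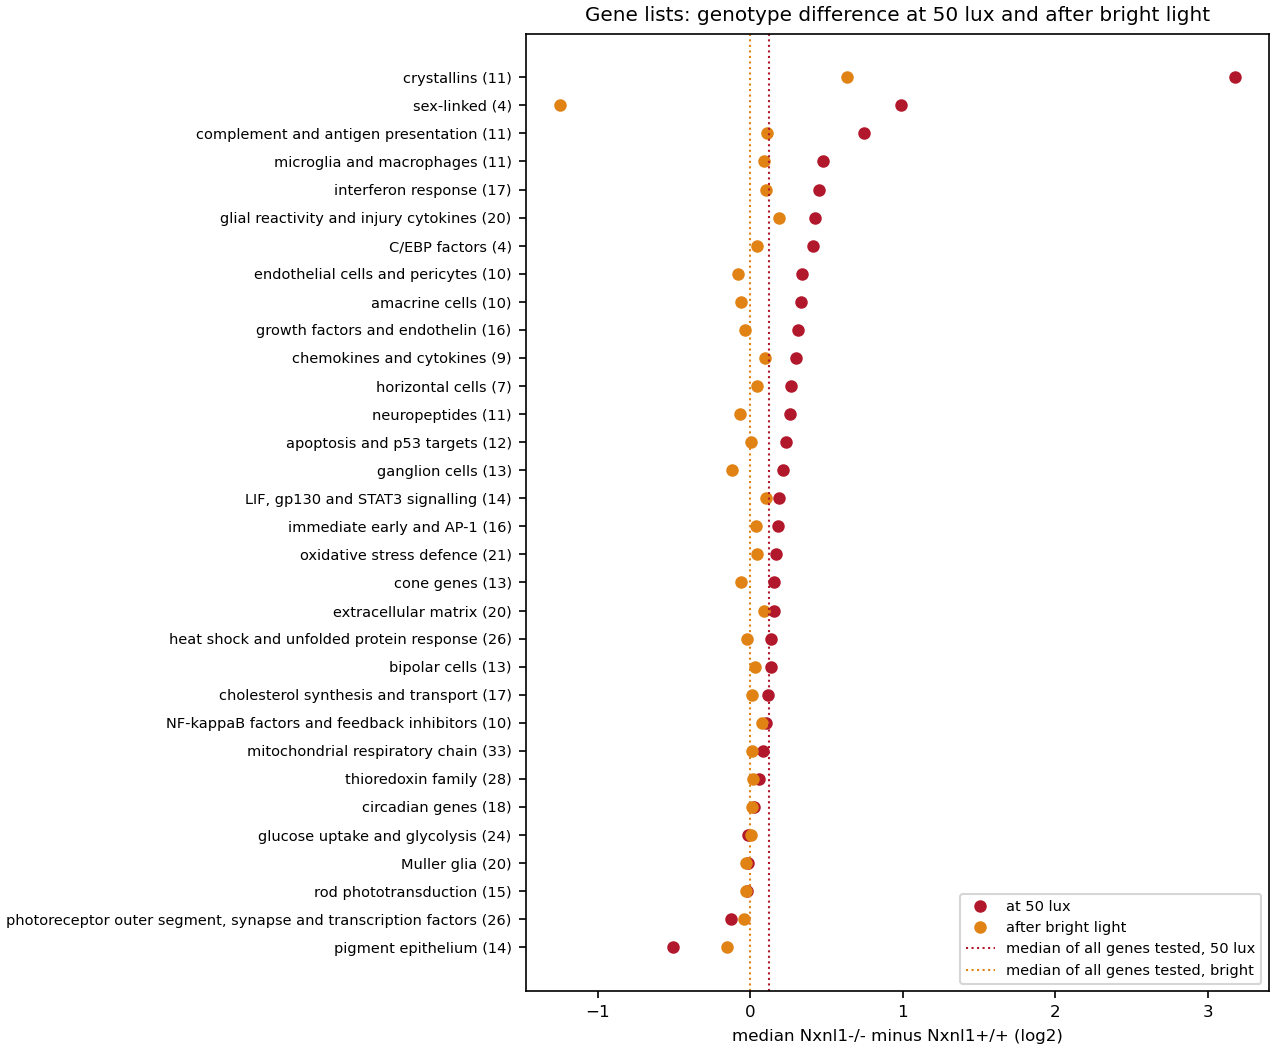
Median genotype difference (Nxnl1-/- minus Nxnl1+/+, log2) over the measured genes of each list with at least 4 of them, at 50 lux (red) and after bright light (orange), with the number of genes measured in brackets and the medians of all genes tested as dotted lines. At 50 lux the medians run from -0.505 for pigment epithelium to 3.18 for crystallins; after bright light all but the crystallins (0.636) and the sex-linked genes (-1.25) lie within 0.2 of 0.

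The 9 genes differed in how far their call rested on single arrays. Edn2 and Nudt6 passed with any of the 16 arrays left out, and so did Sox30 and the dimmer Lrrc2 probe set. Cebpd and Rnase4 each passed in 15 of 16 such fits; without Nxnl1+/+ 50 lux replicate 2 their interactions were -1.82 and -1.88 (limma, adjusted p = 0.0545 for each). The brighter Lrrc2 probe set passed in 7 of 16, Antxr2 in 5, Btc in 4 and Rdh9 in 2. Without Nxnl1+/+ 50 lux replicate 2 the adjusted p in limma was 0.233 for Lrrc2 and 0.329 for Antxr2, Btc and Rdh9, and 4 probe sets passed in all; without Nxnl1-/- 50 lux replicate 2, 43 passed. The count was 29 without Nxnl1-/- 5000 lux replicate 1 and 6 without replicate 2, and 8, 8 and 7 without Nxnl1-/- 2500 lux replicates 1 to 3. It was 9 without Nxnl1+/+ 50 lux replicate 1, 6 and 7 without Nxnl1+/+ 2500 lux replicates 2 and 3, and 6 without Nxnl1+/+ 5000 lux replicate 3. No interaction changed sign. Without the 5 arrays richest in crystallin transcripts, a choice made after seeing the data that leaves 1 Nxnl1-/- array at 50 lux, 4 probe sets passed, of which 2 were among the 15; these were Edn2 and Nudt6.

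**Figure D5:**
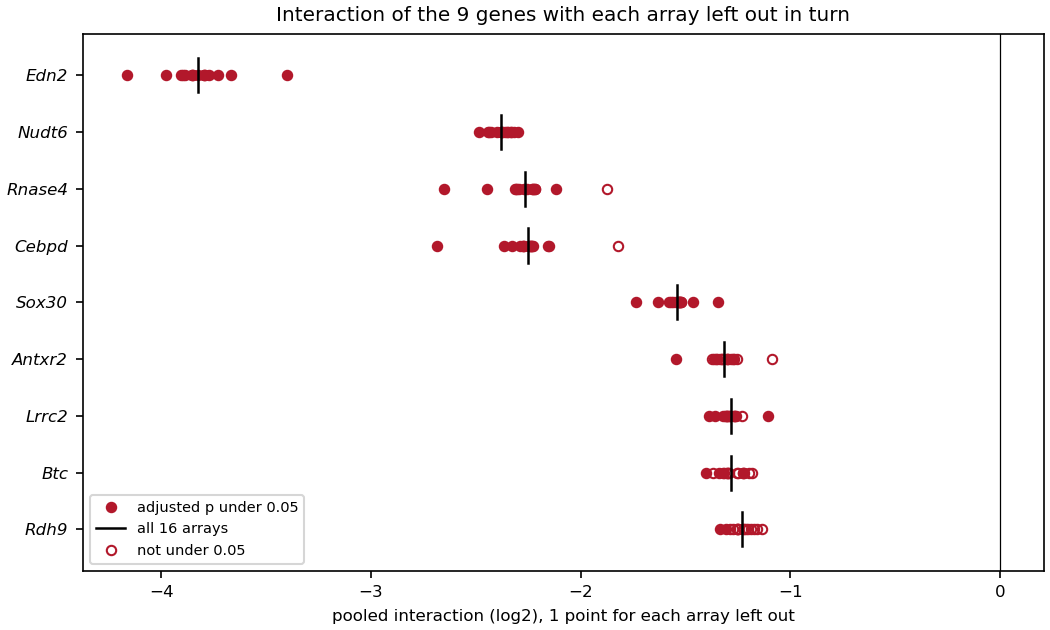
Pooled interaction (log2) of the 9 called genes with each of the 16 arrays left out in turn, filled where the adjusted p stayed under 0.05 and open where it did not; the black bar is the value over all 16 arrays. All points lie left of 0, and the open points gather in Antxr2, Lrrc2, Btc and Rdh9.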

How the data were processed

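Retina RNA was hybridised to Affymetrix 3' expression arrays. The deposited values are intensities on a linear scale, 1 per probe set and array, made by the authors with GCRMA (background correction, normalization and summarisation), per the submitters' processing notes, with no version or settings stated. Log2 was taken, and the 23320 of 45037 probe sets above log2 4 on at least 2 arrays were tested. In limma 3.58.1 (R 4.3.3) 6 group means were fitted over the 16 arrays, with empirical Bayes moderation; the script was checked on simulated data. P-values were adjusted by Benjamini and Hochberg's method across the 23320 within each contrast, and calls needed an adjusted p under 0.05. Symbols came from the platform annotation, and the brightest probe set with 1 symbol stood for each of 10916 genes. The genes named are Nxnl1, Nxnl2, those called, and up to 3 per list with the smallest interaction p; others are said to be chosen after their values were seen. The comparison and the gene lists were chosen with earlier results of these data known. P-values measure the spread between arrays labelled as biological replicates, whose number limits the precision. Median intensity per array was 14.4 to 15.1 at 50 lux and 15.3 to 15.8 after bright light. Other filters, scalings, variance models and groupings were tried, and each array was left out in turn.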

Additional observations from a re-analysis of the deposited data

Results flagged for a closer look

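The light response differed between the genotypes, by the interaction test itself, for 15 probe sets. The interaction was -3.82 for Edn2, -2.38 for Nudt6, -2.26 for Rnase4, -2.25 for Cebpd, -1.54 for Sox30, -1.32 for Antxr2, -1.28 for Btc and -1.23 for Rdh9. It was -1.59 and -1.29 for the Lrrc2 probe sets, -1.72 for a Tagln2 probe set and -1.18 for a dim Myo5b probe set. It was -2.1 for 1418021_at, 1.12 for 1427798_x_at and 1.23 for 1445972_at, none of which is given a gene name here. All values are on the log2 scale and as deposited, and on them for each of the 15 the larger piece of the interaction lay at 50 lux.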

How the results depend on the processing

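No interaction of a called probe set, or of a named gene by its brightest probe set, changed sign under any setting run. For the 15 called probe sets 253 of 402 recomputed values kept their side of the threshold and 149 lost it; for other named genes 945 of 968 kept it and 23 passed. Edn2 and Nudt6 passed in all 27 settings. With each array left out in turn, 4 to 43 probe sets passed for the pooled interaction, 9 to 363 at 50 lux, 1 to 3 after bright light, 3325 to 6343 for the knockout light response, 1305 to 3458 for the wild-type one, 3 to 15 at 2500 lux and 4 to 14 at 5000 lux. Called genes that passed at 50 lux only numbered 3 to 17, at neither 0 to 1. Without a filter 73 passed for the interaction, 141 at 50 lux, 4 after bright light, 47 at 2500 lux, 39 at 5000 lux, and 1 called gene passed in neither piece. With array weights the counts were 26 for the interaction, 248 at 50 lux, 5036 for the wild-type light response, 22 at 2500 lux and 14 called genes passing at 50 lux only. With values raised to log2 4, 2 passed after bright light, and the interaction of the Myo5b probe set was -0.11 (limma, adjusted p = 0.816). With a trend and robust variance 7 passed at 2500 lux. Fits on only the groups compared called 6 at 2500 lux, 1 at 5000 lux and 1 at 50 lux, with fewer arrays. At an adjusted p under 0.10, added after seeing the data, 26 probe sets and 15 genes at 50 lux only passed; without the 5 crystallin-rich arrays, also added, 4 and 4; with the Y-linked level as a covariate, also added, 7 for the interaction. With the replicate block 12 passed for the interaction, 100 at 50 lux and 27 at 2500 lux. Arrays of different groups with the same number correlated from -0.238 to 0.693 (21 of 36 pairs above 0.1). Their median was 0.175, against -0.11 for arrays with different numbers. The numbers were not taken as pairs, which needed all 36 above 0.1. Yet 13 of 16 arrays correlated best with an array of their own number, a hint from the data that same-numbered arrays may belong together. The main p-values take no account of such a tie. The cause of the shifts between settings was not tested.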
